A study of Ovis aries with 6 samples.

Results

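Prostaglandin genes were read across the cells of the Hu sheep ovary at estrus: the cyclooxygenases PTGS1 and PTGS2, the synthases PTGES and PTGIS, the degrading enzyme HPGD, and the receptors PTGFR, PTGER2 and PTGER4. The genes were chosen by name, and all 8 were found among the 30574 genes measured. The tissue came from 6 Hu ewes, a Chinese breed kept for its large litters, with 1 whole ovary per ewe taken within hours of estrus, detected with a ram, kept cold and digested with collagenase and trypsin into single cells. The HLS group held 3 ewes with litters of at least 3 lambs and the LLS group held 3 ewes with litters of fewer than 2 lambs, and the labels name no treatment and give no age for either group. A whole ovary holds follicles of every stage, so ewes can differ in the mix of cells as well as in gene activity. Each ewe gave 1 library.

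Prostaglandins are short-lived lipid signals made from arachidonic acid, which phospholipases free from the membrane. The cyclooxygenases PTGS1, present in many resting cells, and PTGS2, induced by hormones and inflammation, turn it into prostaglandin H2, from which PTGES makes prostaglandin E2 and PTGIS makes prostacyclin. HPGD oxidizes prostaglandins into forms with little activity, PTGER2 and PTGER4 are receptors for prostaglandin E2, and PTGFR is the receptor for prostaglandin F2α. In the ovary, prostaglandin E2 made after the surge of luteinizing hormone is needed for ovulation and for the expansion of the cumulus, and in sheep prostaglandin F2α from the uterus ends the life of the corpus luteum through PTGFR.

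The libraries held 43329214 to 75549906 unique molecular identifiers (UMI, each counting 1 captured RNA molecule), and 36457 of 52290 barcodes were retained, 5189 to 7096 per ewe with a median of 5211 to 9813 UMI per cell. Any 2 libraries shared 13 to 28 barcodes. Cells were clustered without any prostaglandin gene, and clusters were called "X-like" from marker genes of type X, so that "theca-like" cells had CYP17A1 and INSL3 and "granulosa-like" cells FST, INHA and AMH among their leading genes. The stroma fell into DPT stromal-like cells (led by DPT, MFAP5 and PI16), PTCH1 stromal-like cells and ACTA2 stroma. The top 10 genes of ACTA2 stroma held 0 markers of the stromal list and 1 of the perivascular list, ACTA2 itself, so it is called by its leading gene. TAGLN, ACTG2 and CNN1 were also among them. Those of DPT stromal-like cells held 0 of either list, and these cells were named from their summed stromal markers. The stromal marker score, a mean z-score over clusters, was 2.08 in ACTA2 stroma and 2.20 in DPT stromal-like cells. Some clusters stood apart by ewe. Of the endothelial-like clusters, 2 held 73.9% of the endothelial-like cells of HLS replicate 2 and 85.8% of those of LLS replicate 1 and under 1% in the others, OXT luteal-like cells were nearly all from LLS replicate 3 (105 of 107), and an unnamed cluster led by PLAC8 and LAMP3 was mostly from LLS replicate 2 (130 of 154).

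In the sections that follow, the level of a gene is its UMI per 10000 UMI of all genes, after the cells of a type were summed within an ewe, and is given as the mean ± SD over ewes with at least 10 cells of the type. Levels were compared between types with edgeR's quasi-likelihood test with the ewe as a block over 14668 genes, and a gene was called at a Benjamini-Hochberg adjusted p below 0.05. In such sums, fewer expressing cells and less RNA per cell cannot be told apart.

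The 8 genes were spread over different compartments of the ovary. Averaged over ewes, the endothelial-like types held 82.8% of PTGS1 UMI and the granulosa types 68.4% of PTGES UMI, against 49.5% and 9.07% of the UMI of all genes. The stromal types, with 21.4% of all UMI, held 74.5% of PTGS2, 68.9% of PTGFR, 66.03% of PTGIS and 54.3% of HPGD UMI. ACTA2 stroma, counted among them in spite of its perivascular marker, by itself held 34.9% of PTGS2, 38.2% of PTGFR, 26.8% of PTGIS and 17.6% of HPGD UMI. Immune cells, with 4.75% of all UMI, held 56.4% of PTGER4 and 32.9% of PTGER2 UMI, and for PTGER2 the endothelial-like types held 29.4% and the stromal types 22.6%. The genes were sparse, with 1114 UMI in all retained cells for PTGER2, 1500 for HPGD, 2989 for PTGES, 3842 for PTGS1, 3859 for PTGER4, 6244 for PTGFR, 7629 for PTGIS and 16597 for PTGS2.

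**Figure D1:**
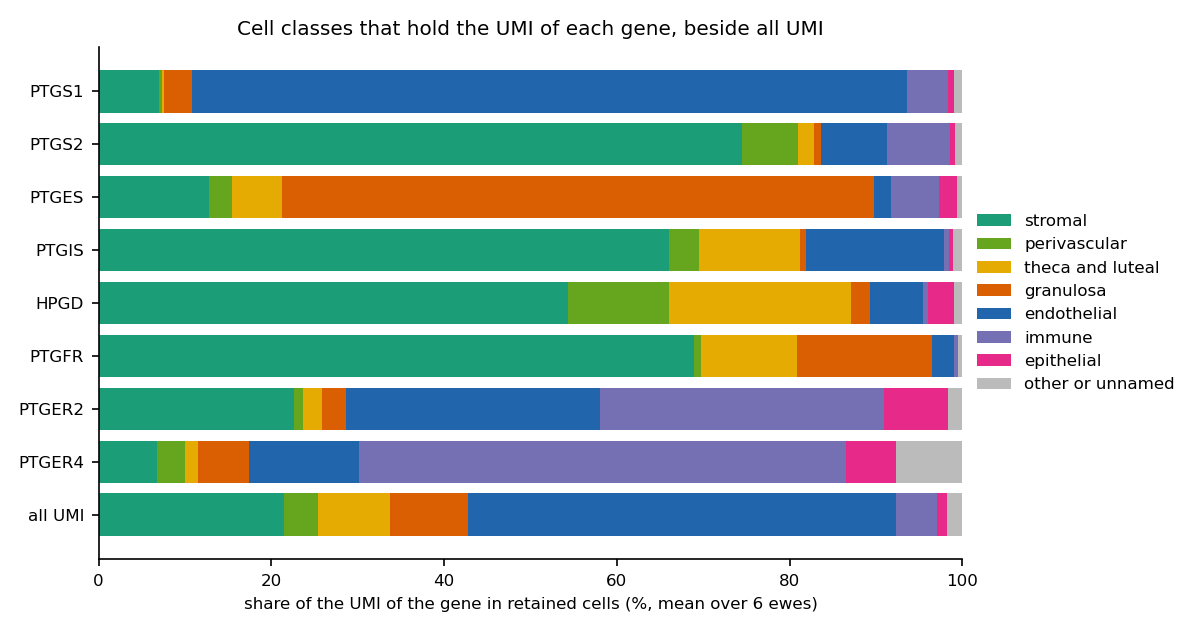
Share of each gene's UMI (percent, x axis) that came from each group of cell types, averaged over the 6 ewes, for the 8 prostaglandin genes and for the UMI of all genes. Endothelial types held 82.8% of PTGS1 UMI, granulosa types 68.4% of PTGES UMI, and immune types 56.4% of PTGER4 UMI against 4.75% of all UMI.

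PTGS1 was read mainly in the endothelium. Its level in endothelial-like cells was 0.313, 0.139 and 0.319 in HLS replicates 1, 2 and 3 and 0.113, 0.251 and 0.325 in LLS replicates 1, 2 and 3, a mean of 0.243 ± 0.0952 (SD, n = 6). The lowest values were those of HLS replicate 2 and LLS replicate 1, the ewes with most endothelial-like cells in the 2 clusters named above, and without those clusters the mean was 0.348 ± 0.0878 with 0.361 and 0.511 in these ewes. Among the endothelial clusters, the level was highest in cells led by GJA5 and SEMA3G, genes known from arteries, at 0.452 ± 0.126 (SD, n = 6), and reached 0.0706 ± 0.00789 (SD, n = 2) in the larger of the 2 clusters set apart by ewe.

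APLN endothelium, called by its leading gene, had a PTGS1 level of 0.242 ± 0.114 (SD, n = 6). Endothelial-like cells did not pass the test against it (log2 difference 0.19 ± 0.34 SE, edgeR adjusted p = 0.776, with 10.3% of all genes called higher in endothelial-like cells). The sign of that difference turned under several other settings, including without HLS replicate 1 (-0.20). B lineage-like cells had a mean of 0.233 ± 0.443 (SD, n = 6) from 27 UMI, with 1.11 in the 18 cells of HLS replicate 1. DPT stromal-like cells followed at 0.147 and macrophage-like cells at 0.130 ± 0.0662 (SD, n = 6). After each cell was thinned to 2000 UMI, 3.70% of endothelial-like cells (exact 95% binomial interval 3.37 to 4.05) had a PTGS1 UMI, against 0.233% of granulosa-like cells (0.0635 to 0.595), the lowest by level of the named types read in all 6 ewes. A high share was not particular to endothelial-like cells. It was 4.11% in APLN endothelium (3.06 to 5.38), 4.10% in macrophage-like cells (2.97 to 5.50) and 3.11% in B lineage-like cells (1.02 to 7.10). In this and the other genes the share in the type lowest by level is given as a low reference. Other types read in all 6 ewes can have a lower share, and free RNA was not measured. Types found in fewer ewes, some of them at 0, are left out of this reference. The median depths before thinning were 8864 UMI in endothelial-like and 6667 UMI in granulosa-like cells, and unthinned shares were 16.3% and 0.411%. Intervals on shares cover counting error only.

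PTGS2, the inducible cyclooxygenase, was highest in the stroma. In DPT stromal-like cells its level was 2.38, 4.49 and 5.80 in HLS replicates 1, 2 and 3 and 4.98, 9.59 and 6.21 in LLS replicates 1, 2 and 3, a mean of 5.58 ± 2.38 (SD, n = 6). In ACTA2 stroma it was 1.38, 2.05, 1.91, 2.27, 5.28 and 3.17 in the same order, a mean of 2.68 ± 1.40 (SD, n = 6). LLS replicate 2 was the highest ewe in both types, and each ewe had more PTGS2 in DPT stromal-like cells than in ACTA2 stroma.

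The PTGS2 level in DPT stromal-like cells exceeded that in ACTA2 stroma by 1.10 ± 0.36 SE on the log2 scale (edgeR adjusted p = 0.0222), in a contrast in which 8.67% of all genes were called higher in DPT stromal-like cells. The call was lost when HLS replicate 2 was left out (adjusted p = 0.0663), and likewise for the removal of HLS replicate 3 (0.0757) and of LLS replicate 3 (0.0581). ACTA2 stroma and macrophage-like cells, at 1.31 ± 0.534 (SD, n = 6), were neighbours that did not pass the test (0.78, adjusted p = 0.0584). Macrophage-like cells exceeded perivascular-like cells by 1.11 ± 0.39 SE (adjusted p = 0.0103, with 27.3% of all genes called higher). PTCH1 stromal-like cells were at 0.675, close to perivascular-like cells at 0.693 (adjusted p = 0.765).

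The theca-like and granulosa types held little PTGS2: 0.0967 ± 0.0589 in theca-like, 0.0555 ± 0.0192 in granulosa-like and 0.0365 ± 0.0209 in mural granulosa-like cells (SD, n = 6 each). After thinning, 46.9% of DPT stromal-like cells had a PTGS2 UMI (exact 95% interval 44.3 to 49.5), against 0.873% of granulosa-like cells (0.489 to 1.44). The share was 0.506% in cycling endothelial-like cells (0.164 to 1.18), the lowest of the named types read in all 6 ewes. The intervals of the granulosa-like and cycling endothelial-like shares overlapped. Median depths were 5218.5, 6667 and 17223 UMI, and unthinned shares were 62.1%, 3.08% and 1.40%. Among the granulosa sub-clusters kept, PTGS2 was at 0.242 in cells led by PTPRD, COCH and WT1, a gene known from early granulosa cells, from 40 UMI, with 0 to 0.640 over ewes. A sub-cluster of 107 cells led by CYTL1, FATE1 and RGS5 had more, 0.900 from 40 UMI. It was at 0 in LLS replicate 1, 1.44 in LLS replicate 2 and 0.628 in LLS replicate 3. Its top 10 genes held 1 perivascular marker and 0 granulosa markers, so it was left out of the granulosa types above. In the sub-cluster led by TNFAIP6, CYP19 and LHCGR, genes of the follicle near ovulation, 0 of 137 cells had a PTGS2 UMI, at a median of 2346 UMI per cell, which limits the share of cells with a UMI to 2.19% at 3 counts but not the share that expresses the gene, and 105 of them were from LLS replicate 1. PTGS2 is quickly induced, as are immediate early genes such as FOS and JUN, which can rise while tissue is digested. The summed level of 8 such genes was 171.6 to 292.1 in DPT stromal-like cells and 171.2 to 334.7 in ACTA2 stroma over the ewes. LLS replicate 2 was the highest ewe in ACTA2 stroma, at 334.7. In DPT stromal-like cells it was at 238.7, below HLS replicate 3 (292.1) and LLS replicate 3 (290.8). The part of these genes in the PTGS2 level was not tested.

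**Figure D2:**
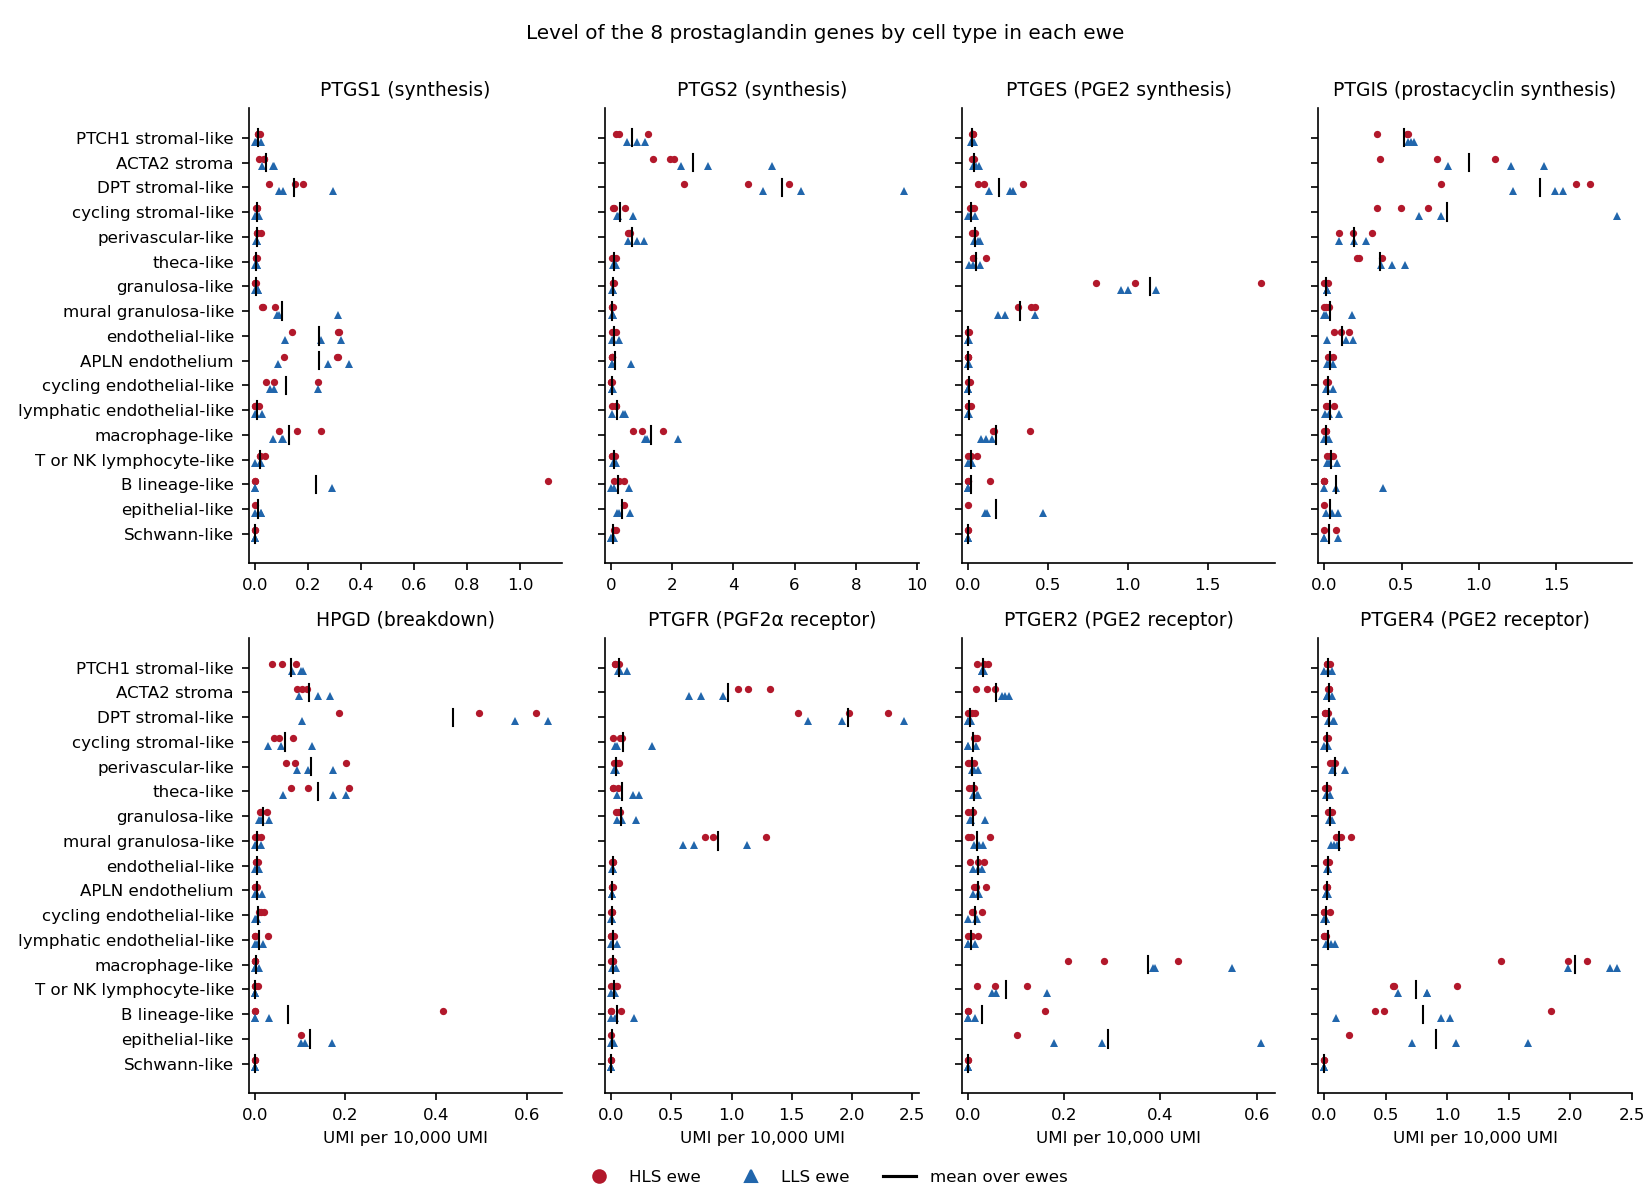
Level of the 8 genes (x axis, UMI per 10000 UMI, linear, with its own range in each panel) by cell type, with 1 point per ewe with at least 10 cells (red circles, HLS; blue triangles, LLS) and a black line for the mean over ewes. PTGS2, PTGIS, HPGD and PTGFR were highest in DPT stromal-like cells among types with 6 ewes, PTGES in granulosa-like cells, PTGS1 in endothelial-like cells and PTGER2 and PTGER4 in macrophage-like cells.

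PTGES, which makes prostaglandin E2, was a gene of granulosa cells. Its level in granulosa-like cells was 1.05, 1.83 and 0.803 in HLS replicates 1, 2 and 3 and 1.18, 0.957 and 1.004 in LLS replicates 1, 2 and 3, a mean of 1.14 ± 0.362 (SD, n = 6). HLS replicate 2 stood above the other ewes. Mural granulosa-like cells were at 0.329 ± 0.101 (SD, n = 6), and every ewe had less PTGES there than in granulosa-like cells. The top 10 genes of mural granulosa-like cells began with GCG and TIMP1 and held 1 of 4 mural markers, HTRA3.

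The difference between granulosa-like and mural granulosa-like cells was 1.71 ± 0.27 SE on the log2 scale (edgeR adjusted p = 1.54e-07, with 17.7% of all genes called higher in granulosa-like cells). Mural granulosa-like cells exceeded the next type, DPT stromal-like cells at 0.198 ± 0.115, by 0.75 ± 0.30 SE (adjusted p = 0.0291, with 26% of all genes called higher), while DPT stromal-like and macrophage-like cells, at 0.175 ± 0.110, were not told apart (adjusted p = 1.0). After thinning, 14.4% of granulosa-like cells had a PTGES UMI (exact 95% interval 12.8 to 16.2) against 0.0821% of APLN endothelium (0.00208 to 0.457). The latter was the lowest by level of the named types read in all 6 ewes. Median depths were 6667 and 9419 UMI, and unthinned shares were 29.3% and 0.246%.

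Within the granulosa cells, PTGES varied with the sub-cluster. Pooled over ewes, it was 2.44 in cycling cells led by TOP2A and CENPF and 2.32 in cells led by AMH, HSD17B1 and IHH, genes of growing follicles. Both were high in each ewe with at least 10 cells, from 1.23 to 5.11 in the first over 5 ewes and from 2.14 to 2.85 in the second over 6 ewes. HLS replicate 2, the highest ewe in granulosa-like cells, was at 2.515 and 2.205 in them, inside these ranges. It had 55 and 134 cells there, beside 384 granulosa-like cells. HLS replicate 3, the lowest ewe, had 66 and 29, beside 702. The part of this mix in the level of HLS replicate 2 was not tested. Levels of 0.601 to 0.3004 were found in 6 other sub-clusters. The sub-cluster led by TNFAIP6, CYP19 and LHCGR was at 0.228, from 12 UMI. It had 0.145 in the 105 cells of LLS replicate 1 and 0.547 in the 25 cells of HLS replicate 2, within the range of those 6. The one led by PTPRD, COCH and WT1 was at 0.0967, from 16 UMI. The 2 highest sub-clusters did not overlap the last one, which reached 0.270 in its highest ewe. Sub-clusters were described without a test.

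**Figure D3:**
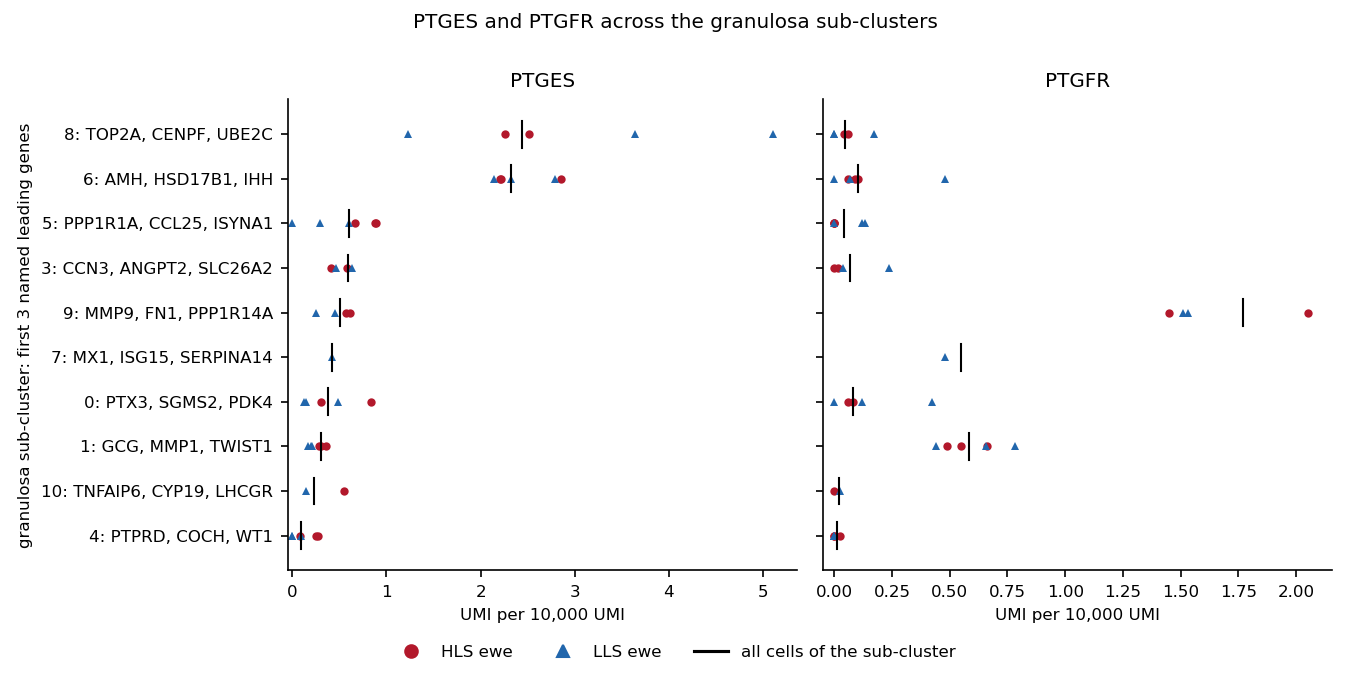
Levels of PTGES and PTGFR (UMI per 10000 UMI) in the granulosa sub-clusters, with a black line for all cells of a sub-cluster pooled and 1 point per ewe with at least 10 cells (red circles, HLS; blue triangles, LLS), and sub-clusters named by 3 leading genes. PTGES was 2.44 and 2.32 in the sub-clusters led by TOP2A and by AMH, and PTGFR was 1.77 in the one led by MMP9 and FN1.

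PTGIS, prostacyclin synthase, belonged to the stroma. Its level in DPT stromal-like cells was 0.755, 1.63 and 1.72 in HLS replicates 1, 2 and 3 and 1.55, 1.22 and 1.49 in LLS replicates 1, 2 and 3, a mean of 1.40 ± 0.356 (SD, n = 6). HLS replicate 1 was the lowest ewe there and also in ACTA2 stroma, where the level was 0.937 ± 0.381 (SD, n = 6). The 2 types did not pass the test of their difference (0.64 ± 0.27 SE on the log2 scale, edgeR adjusted p = 0.0886, with 8.67% of all genes called higher in DPT stromal-like cells), but did without LLS replicate 1 (adjusted p = 0.0289). Cycling stromal-like cells were at 0.796 ± 0.559, with 1.90 in the 21 cells of LLS replicate 1. PTCH1 stromal-like cells followed at 0.518 and theca-like cells at 0.358 ± 0.120. No neighbour in this order, from DPT stromal-like down to theca-like cells, passed the test against the next.

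Prostacyclin is known as a product of vessels. In endothelial-like cells PTGIS was at 0.113 ± 0.0634 (SD, n = 6), and at 0.159 ± 0.0451 without the 2 clusters set apart by ewe. The perivascular-like cluster led by CLDN10, PDE3A and MYH11 was at 0.473 ± 0.198, and the one led by RGS5 and POSTN at 0.0882 ± 0.0437 (SD, n = 6 each). PTGIS was at 0.523 ± 0.166 (SD, n = 6) in the endothelial cluster led by GJA5 and SEMA3G. It was at 0.551 ± 0.0273 (SD, n = 3) in the one with ACKR1, known from veins, and FABP4 among its leading genes. In the 105 OXT luteal-like cells of LLS replicate 3 the level was 1.68, from 197 UMI. After thinning, 21.6% of DPT stromal-like cells had a PTGIS UMI (exact 95% interval 19.5 to 23.8) against 0.293% of macrophage-like cells (0.0605 to 0.854), the lowest of the named types read in all 6 ewes, at median depths of 5218.5 and 6455 UMI and unthinned shares of 44.7% and 0.951%.

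HPGD, which breaks prostaglandins down, was sparse everywhere. In DPT stromal-like cells its level was 0.185, 0.620 and 0.494 in HLS replicates 1, 2 and 3 and 0.646, 0.105 and 0.573 in LLS replicates 1, 2 and 3, a mean of 0.437 ± 0.234 (SD, n = 6). HLS replicate 1 and LLS replicate 2 were the low ewes, below the other 4. Theca-like cells came next at 0.140 ± 0.0624, then perivascular-like cells at 0.124 ± 0.0528 and ACTA2 stroma at 0.119 ± 0.0284 (SD, n = 6 each). The perivascular-like cluster led by RGS5 and POSTN was at 0.163 ± 0.0682, and the one led by CLDN10, PDE3A and MYH11 at 0.0136 ± 0.0213 (SD, n = 6 each).

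DPT stromal-like cells exceeded theca-like cells by 1.44 ± 0.30 SE on the log2 scale (edgeR adjusted p = 2.35e-05, with 26% of all genes called higher in DPT stromal-like cells), and theca-like and perivascular-like cells did not pass the test of their difference (0.38 ± 0.31 SE, adjusted p = 0.308). After thinning, 4.77% of DPT stromal-like cells had an HPGD UMI (exact 95% interval 3.72 to 6.01). In T or NK lymphocyte-like cells, the lowest of the named types read in all 6 ewes, 0 of 1147 cells had an HPGD UMI, which allows a share of cells with a UMI of up to 0.262% at 3 counts and 0.321% by the exact 95% interval. Median depths were 5218.5 and 2371 UMI, and unthinned shares were 10.4% and 0.0596%. DPT stromal-like cells thus had the highest mean level of PTGS2, PTGIS and HPGD among the types read in all 6 ewes.

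PTGFR, the receptor for prostaglandin F2α, was read mainly in DPT stromal-like cells, ACTA2 stroma and mural granulosa-like cells, and in OXT luteal-like cells of 1 ewe. Its highest level was 4.74, from 555 UMI in the 105 OXT luteal-like cells of LLS replicate 3, a value with no replicate. The top 10 genes of the OXT luteal-like cluster held 2 luteal markers and 2 haemoglobin genes. In DPT stromal-like cells it was 1.98, 2.31 and 1.55 in HLS replicates 1, 2 and 3 and 2.44, 1.92 and 1.64 in LLS replicates 1, 2 and 3, a mean of 1.97 ± 0.352 (SD, n = 6). The ewes lay close together and the groups overlapped. ACTA2 stroma was at 0.973 ± 0.252 and mural granulosa-like cells at 0.888 ± 0.267 (SD, n = 6 each). PTCH1 stromal-like cells were only at 0.0647 ± 0.0366 (SD, n = 6).

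DPT stromal-like cells exceeded ACTA2 stroma by 1.05 ± 0.26 SE on the log2 scale (edgeR adjusted p = 0.00144, with 8.67% of all genes called higher). ACTA2 stroma and mural granulosa-like cells did not pass the test of their difference (0.25 ± 0.26 SE, adjusted p = 0.451), and mural granulosa-like cells exceeded the next type, cycling stromal-like cells, by 3.76 ± 0.37 SE (adjusted p = 9.02e-15, with 21.3% of all genes called higher). Among granulosa sub-clusters, pooled PTGFR was 1.77 in the one led by MMP9 and FN1, with 1.45 to 2.05 over 4 ewes, 0.583 in the one led by GCG and MMP1 and 0.551 in the one led by interferon-response genes such as MX1 and ISG15, which was nearly all LLS replicate 2 (205 of 210 cells). It was 0.103 and 0.0473 in the 2 sub-clusters with the most PTGES. After thinning, 29.8% of DPT stromal-like cells had a PTGFR UMI (exact 95% interval 27.5 to 32.3), against 0 of 989 cycling endothelial-like cells, the lowest of the named types read in all 6 ewes, which allows a share of up to 0.303% at 3 counts and 0.372% by the exact 95% interval, at median depths of 5218.5 and 17223 UMI and unthinned shares of 50.5% and 0.903%.

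Both prostaglandin E2 receptors had their highest level in macrophage-like cells among the types read in all 6 ewes. PTGER4 in macrophage-like cells was 1.43, 1.98 and 2.14 in HLS replicates 1, 2 and 3 and 2.38, 2.33 and 1.98 in LLS replicates 1, 2 and 3, a mean of 2.04 ± 0.341 (SD, n = 6). All ewes but HLS replicate 1 lay within a narrow range. The unnamed cluster led by PLAC8 and LAMP3 had 4.43 in HLS replicate 3 and 3.57 in LLS replicate 2, the ewes with at least 10 of its cells. Epithelial-like cells were at 0.911 ± 0.610 (SD, n = 4), B lineage-like cells at 0.80 ± 0.618 and T or NK lymphocyte-like cells at 0.746 (n = 6 each). The epithelial-like level rests on the LLS ewes and HLS replicate 3, and 191 of the 309 cells were from LLS replicate 2.

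Macrophage-like cells exceeded epithelial-like cells in PTGER4 by 1.51 ± 0.29 SE on the log2 scale (edgeR adjusted p = 6.67e-06, with 25.9% of all genes called higher in macrophage-like cells). Epithelial-like, B lineage-like and T or NK lymphocyte-like cells were neighbours that did not pass the test (adjusted p = 0.724 and 0.620), and T or NK lymphocyte-like cells exceeded mural granulosa-like cells, at 0.116 ± 0.0576, by 3.00 ± 0.30 SE (adjusted p = 5.96e-15, with 26.5% of all genes called higher). After thinning, 33.5% of macrophage-like cells had a PTGER4 UMI (exact 95% interval 30.6 to 36.5) against 0.101% of cycling endothelial-like cells (0.00256 to 0.562). The latter were the lowest by level of the named types read in all 6 ewes. Median depths were 6455 and 17223 UMI, and unthinned shares were 62.9% and 2.41%.

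PTGER2 in macrophage-like cells was 0.209, 0.283 and 0.437 in HLS replicates 1, 2 and 3 and 0.389, 0.384 and 0.549 in LLS replicates 1, 2 and 3, a mean of 0.375 ± 0.119 (SD, n = 6). The groups overlapped. Epithelial-like cells were at 0.292 ± 0.223 (SD, n = 4), with 0.102 in the 17 cells of HLS replicate 3, the only HLS ewe read there. They were below macrophage-like cells by 0.83 ± 0.37 SE on the log2 scale (edgeR adjusted p = 0.0493, with 25.9% of all genes called higher in macrophage-like cells). The call did not hold when HLS replicate 1 (0.0722) or HLS replicate 3 (0.143) was left out, nor when LLS replicate 2 (0.130) or LLS replicate 3 (0.393) was. T or NK lymphocyte-like cells were at 0.0785 ± 0.0543 and ACTA2 stroma at 0.0583 ± 0.0256 (SD, n = 6 each). One endothelial cluster, led by CXCL12 and GJA4 and nearly all from HLS replicate 2 and LLS replicate 1, had levels of 0.129 and 0.122 in these ewes, with 0.463 in the few cells of LLS replicate 3. After thinning, 7.71% of macrophage-like cells had a PTGER2 UMI (exact 95% interval 6.16 to 9.52) against 0.0702% of DPT stromal-like cells (0.00178 to 0.390). The latter were the lowest by level, though not by share, of the named types read in all 6 ewes. Median depths were 6455 and 5218.5 UMI, and unthinned shares were 23.1% and 0.334%.

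The comparison of HLS with LLS asks which genes differ between ewes of high and low litter size. It was made within each of 15 cell types with at least 10 cells in every ewe, and over all retained cells, with edgeR's quasi-likelihood test on the 6 sums. Of 56 tests of a prostaglandin gene in a type, 0 were called at an adjusted p below 0.05, and the smallest adjusted p was 0.762. Across all genes, 0.0% were called in each type but macrophage-like cells, where 2 of 8865 genes (0.0226%) were called. At an unadjusted p below 0.05, 7 of the 56 tests passed, with 3 higher and 4 lower in HLS, beside 3.65% of all tests of a gene in a type, and in 5 of the 56 the values of the groups did not overlap, beside 9.11% of all tests. DESeq2 also called 0 of the 8 genes.

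**Figure D4:**
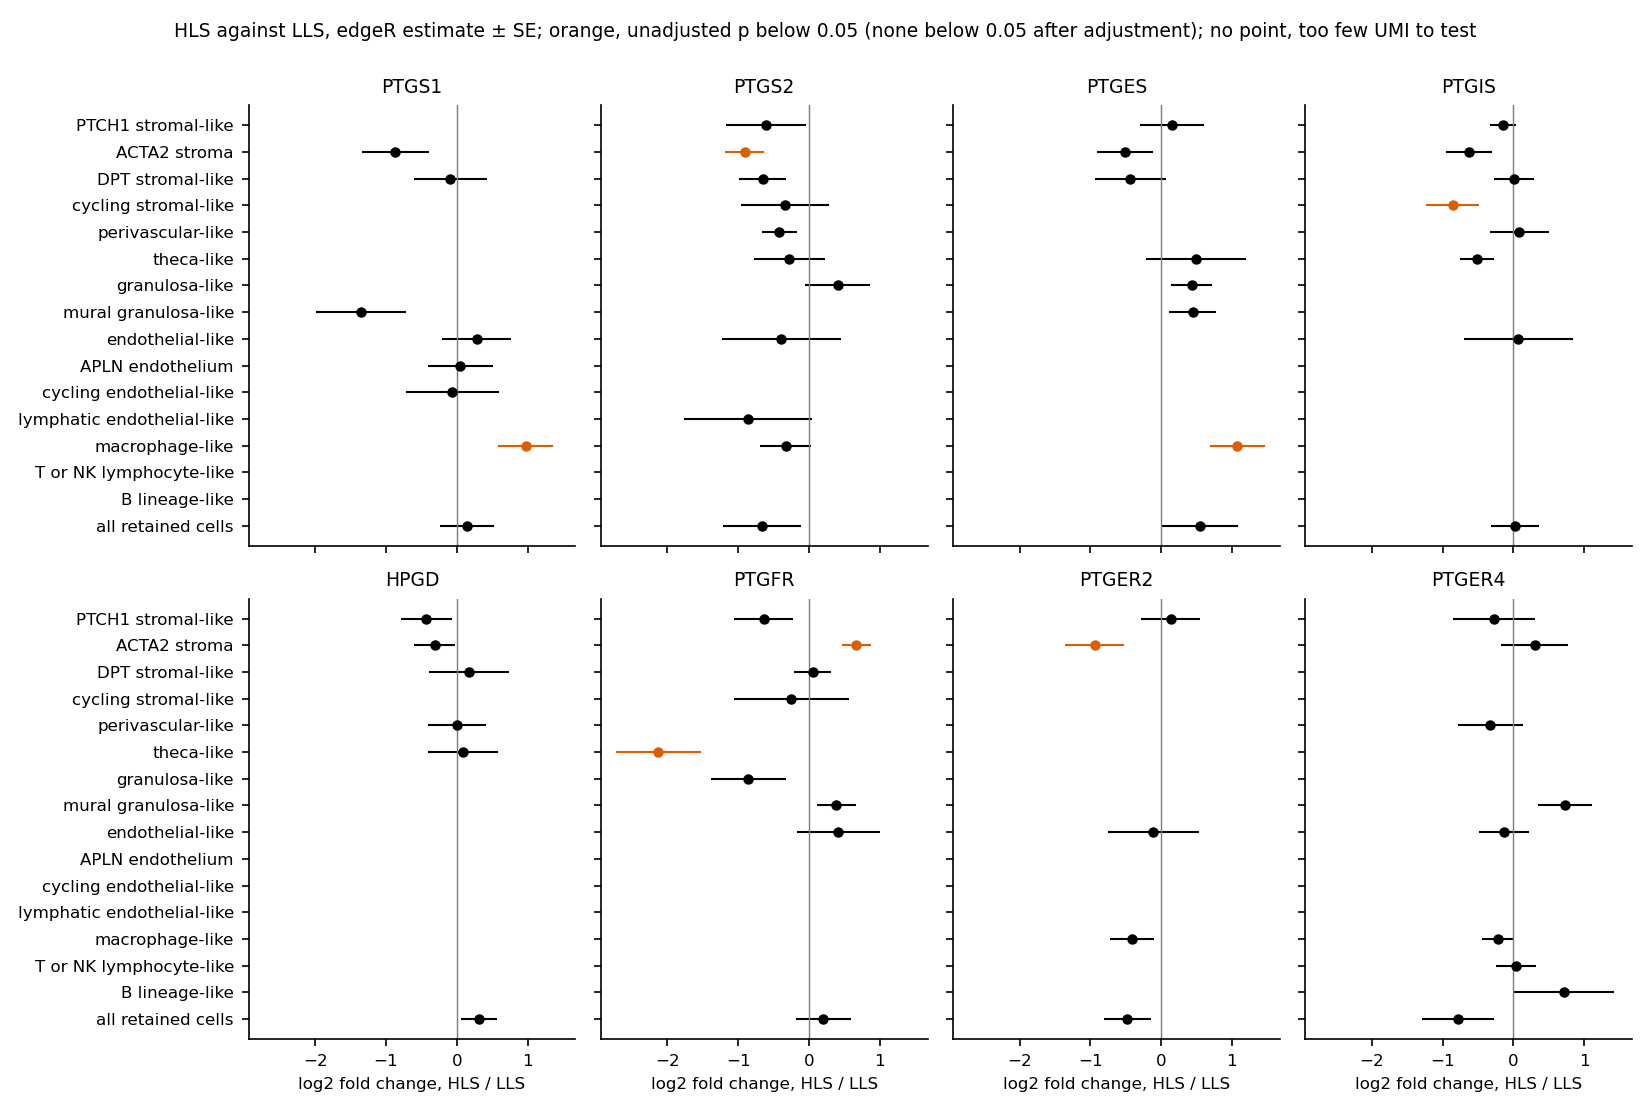
Fitted log2 fold change of HLS over LLS (x axis) in each cell type, with 1 panel per gene, as edgeR estimate ± SE, in orange where the unadjusted p was below 0.05 and with no point where UMI were too few to test. The values ran from -2.13 (PTGFR in theca-like cells) to 1.08 (PTGES in macrophage-like cells), and none passed an adjusted p of 0.05.

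ACTA2 stroma held 3 of the 7 tests that passed unadjusted, where 5.6% of all genes had an unadjusted p below 0.05 and 9.99% had groups that did not overlap. PTGS2, given above for each ewe, was 1.38 to 2.05 in HLS and 2.27 to 5.28 in LLS, with no overlap and a log2 fold change of HLS over LLS of -0.91 ± 0.28 SE (unadjusted p = 0.00777 in edgeR, adjusted p = 0.853). Without LLS replicate 2, the highest ewe, it was -0.57. PTGFR ran the other way, with values of 1.05, 1.14 and 1.32 in HLS against 0.928, 0.647 and 0.744 in LLS, also without overlap, and a log2 fold change of 0.67 ± 0.21 SE (unadjusted p = 0.00779, adjusted p = 0.853). With the stromal types joined, a setting chosen after the data were seen, it was 0.03. PTGER2 had the values 0.0400, 0.0567 and 0.0182 in HLS, all under those of LLS, 0.0782, 0.0704 and 0.0863, from 118 UMI, with a log2 fold change of -0.94 ± 0.42 SE (unadjusted p = 0.0477, adjusted p = 0.853) and -0.58 without HLS replicate 3.

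In the same ACTA2 stroma, 4 of 5 tested inflammatory genes were lower in HLS at an unadjusted p below 0.05 and 0 were called in edgeR. They were the cytokine genes IL1A (-1.33 on the log2 scale) and CXCL8 (-1.32) and the NF-κB regulators TNFAIP3 (-1.18) and NFKBIA (-0.54). The median of the 5 was -1.18, against 0.00 for all genes. The summed level of the 7 inflammatory genes found was 1.35 to 2.38 in HLS and 2.97 to 3.99 in LLS. Lower values were not particular to this type. The median of the tested inflammatory genes was below 0 in every other type but B lineage-like cells, where 1 was tested. It was -0.77 in macrophage-like cells, -0.53 in perivascular-like cells and -0.61 over all retained cells. Of 8 tested genes known from the follicle near ovulation, PTX3, TNFAIP6 and RUNX2 were lower at an unadjusted p below 0.05. Of the 8 immediate early genes, 0 passed, and their summed level was 175.6 to 202.9 in HLS and 171.2 to 334.7 in LLS. The part of any of these genes in the values of ACTA2 stroma was not tested.

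**Figure D5:**
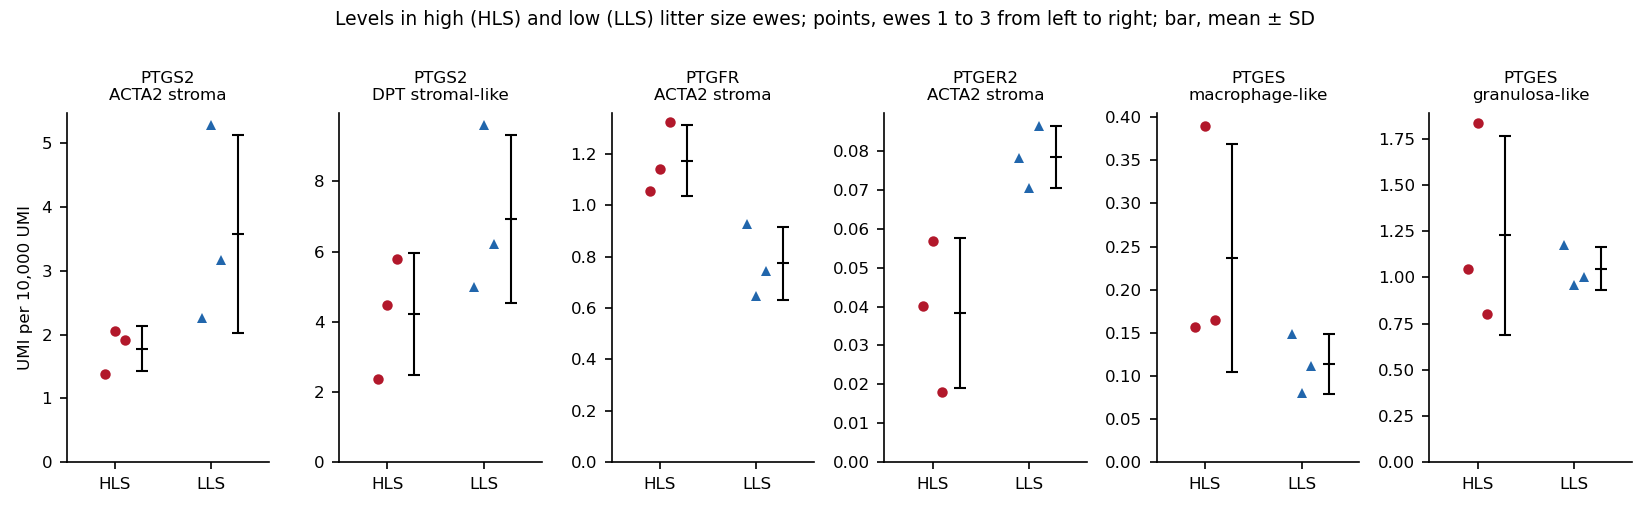
Levels (UMI per 10000 UMI, y axis from 0) in single ewes of the HLS and LLS groups, for 6 pairs of gene and type, with bars for the mean ± SD of each group of 3 and replicates 1 to 3 placed from left to right. PTGS2 in ACTA2 stroma was 1.38 to 2.05 in HLS and 2.27 to 5.28 in LLS, and PTGFR in ACTA2 stroma was 1.05 to 1.32 and 0.647 to 0.928.

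In macrophage-like cells, PTGES stood at 0.156, 0.390 and 0.165 in HLS against 0.149, 0.0802 and 0.112 in LLS, from 140 UMI. The groups did not overlap, but HLS replicate 1 and LLS replicate 1 were close. Its log2 fold change was 1.08 ± 0.39 SE (unadjusted p = 0.0183 in edgeR, adjusted p = 0.762), and 0.63 without HLS replicate 2. PTGS1 had 0.98 ± 0.39 SE there (unadjusted p = 0.0290, adjusted p = 0.786) with groups that overlapped, and 0.53 without HLS replicate 3. Thus 2 of 5 tested prostaglandin genes passed unadjusted, beside 6.11% of all genes, and 1 of 5 had groups that did not overlap, beside 12.2%. PTGS2, PTGER2 and PTGER4 in macrophage-like cells had log2 fold changes of -0.33, -0.42 and -0.22, with unadjusted p of 0.205 to 0.383. In these cells the summed level of the 8 immediate early genes was 50.1 to 66.6 in HLS and 67.3 to 99.8 in LLS. That of the genes of the follicle near ovulation was 6.44 to 8.78 and 10.6 to 11.1. The sum of the 7 inflammatory genes overlapped between groups, at 51.05 to 80.19 in HLS and 41.48 to 146.6 in LLS. Lower in HLS at an unadjusted p below 0.05 were 2 of 8 immediate early genes (FOS and EGR1), 3 of 9 genes of the follicle near ovulation (PTX3, RUNX2 and ADAMTS1) and 2 of 7 inflammatory genes (TNF and NFKBIA), 0 of them called, and their part in the prostaglandin values was not tested.

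The remaining tests under an unadjusted p of 0.05 were in theca-like and cycling stromal-like cells. PTGFR in theca-like cells, from 134 UMI, had values of 0.0153, 0.0171 and 0.0521 in HLS against 0.181, 0.227 and 0.0512 in LLS, and LLS replicate 3 lay within the HLS range. Its log2 fold change was -2.13 ± 0.61 SE (unadjusted p = 0.00508 in edgeR, adjusted p = 0.978, with 3.44% of all genes under an unadjusted p of 0.05), and among the alternatives run it was called only with no filter on low counts (adjusted p = 0.00344). The summed immediate early genes of theca-like cells were also apart, at 59.7 to 73.7 in HLS and 77.9 to 129.0 in LLS, with 0 of 8 under an unadjusted p of 0.05, and their part was not tested. PTGIS in cycling stromal-like cells had -0.86 ± 0.37 SE (unadjusted p = 0.0387, adjusted p = 0.999, with 2.81% of all genes under 0.05), with the high value of LLS replicate 1, -0.31 without that ewe and 0.10 after thinning. PTGS1 in mural granulosa-like cells, from 91 UMI, did not overlap between groups, beside 8.37% of all genes, with 0.0781, 0.0312 and 0.0259 in HLS and 0.312, 0.0932 and 0.0829 in LLS (-1.35 ± 0.63 SE, unadjusted p = 0.0554, adjusted p = 0.986).

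In the types where each gene was highest among those read in all 6 ewes, no difference between HLS and LLS had an unadjusted p below 0.05 in edgeR. The log2 fold changes from edgeR were 0.43 ± 0.29 SE for PTGES in granulosa-like cells (unadjusted p = 0.168), -0.65 ± 0.34 for PTGS2, 0.01 ± 0.28 for PTGIS, 0.17 ± 0.57 for HPGD and 0.05 ± 0.26 for PTGFR in DPT stromal-like cells (unadjusted p = 0.0749 to 0.975), and 0.28 ± 0.48 for PTGS1 in endothelial-like cells (unadjusted p = 0.580). Without the 2 endothelial clusters set apart by ewe the last was 0.00. PTGS2 had lower fitted values in HLS in 9 of 10 types tested, which share the same 6 ewes.

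Over all retained cells, 0 of the 8 genes had an unadjusted p below 0.05 in edgeR, beside 3.03% of all genes, and 0 were called. PTGS2 stood at 0.290, 0.318 and 0.679 in HLS against 0.310, 1.43 and 0.481 in LLS, with a log2 fold change of -0.67 ± 0.55 SE (unadjusted p = 0.264). LLS replicate 2 stood far above the other ewes; it also had the most DPT stromal-like cells, 615 of 5189 against 97 to 261 cells in the others, and the part of that share in its value was not tested.

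The other genes of the pathway were read from a list of 26, of which 22 were found. None of them was called between HLS and LLS by edgeR in any type or over all cells. At an unadjusted p below 0.05, 6 of 168 tests in a type and 1 of 22 over all cells passed, each higher in HLS, which is near the 3.65% and 3.03% of all genes. These were PRXL2B, a prostamide and prostaglandin F synthase, in ACTA2 stroma (0.53 on the log2 scale) and granulosa-like cells (0.75), PTGDS, prostaglandin D synthase, in APLN endothelium (1.497) and T or NK lymphocyte-like cells (1.26), PTGR1, a prostaglandin reductase, in cycling stromal-like cells (0.53) and all retained cells (0.46), and TBXAS1, thromboxane synthase, in macrophage-like cells (0.91).

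By level, PTGDS reached 36.5 ± 16.98 (SD, n = 6) in DPT stromal-like cells, with 21.95 to 68.2 over ewes, and 33.6 ± 10.6 (SD, n = 5) in Schwann-like cells. PTGES3, also known as the chaperone p23, was at 5.21 ± 0.306 (SD, n = 6) in cycling endothelial-like cells, its highest type. The prostaglandin transporter gene SLCO2A1 was at 3.16 ± 1.61 in cycling endothelial-like cells and 2.86 ± 0.862 in APLN endothelium (SD, n = 6 each). PTGR1 was at 2.73 ± 0.837 and AKR1B1, a prostaglandin F synthase, at 1.19 ± 0.397 in granulosa-like cells (SD, n = 6 each), the type with the most PTGES. PTGER3, a further prostaglandin E2 receptor, was at 5.07 in the 31 PRG4 epithelial-like cells, all of LLS replicate 2.

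Genes among those with the pattern most like each of the 8 were named by Pearson's r of log2(CPM + 1) over 99 sums of an ewe and a type, among 14668 genes. The sums share ewes, libraries and depth, so r is a description. PTGES was most like INHBA (0.80), a subunit of activin and inhibin, ADIPOR2 (0.71) and AMH (0.70). PTGS2 was most like C1R, GAL3ST4 and PID1 (each 0.80), PTGIS most like TMEM119, OSR2 and GLI2 (each 0.84), and HPGD most like LOC101123672 (0.80), BGN (0.80), a matrix proteoglycan, and PRRX1 (0.78). PTGFR was most like MAOB (0.87), WNT5B (0.82) and GPC6 (0.82). PTGER4 was most like PTPN6 (0.85), a phosphatase of blood cells, MAP4K1 (0.85) and FERMT3 (0.84), and PTGER2 most like AREG (0.73), an epidermal growth factor receptor ligand, and ADAM28 (0.71). PTGS1 had the weakest likeness, with LOC101108756 (0.72), LOC101114959 (0.72) and SLC7A8 (0.69).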

How the data were processed

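Ovaries of 6 ewes were read as 1 single-cell library each (10x 3′ v3). UMI counts were made by the authors with Cell Ranger 5.0.0, which maps by STAR, and deposited per gene and barcode for each library; the genome build is not given in the sources used here. Groups were taken from the labels. The genes, lists and tests were chosen with earlier results of these data known.

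Barcodes with under 200 genes, under 1000 UMI (7385 of 52290), log10 genes below 0.7 of log10 UMI, over 10% mitochondrial UMI (8356) or over 5% haemoglobin UMI were removed, and 2007 doublets were called from the neighbours of simulated doublets and removed. The 36457 remaining cells were clustered on 2000 variable genes without prostaglandin genes (30 principal components, 20 neighbours, Leiden resolution 0.8) into 30 clusters. Clusters were named from fixed marker genes after their leading genes were seen. Granulosa cells were clustered again. Sub-clusters with more markers of another class than of granulosa cells among their top 10 genes, 554 cells, were left out. Clusters without a fitting list (783 shallow cells and the cells led by LAMP3 or by S100A8) stayed unnamed.

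UMI counts were summed per ewe and type. edgeR 4.0.16 (R 4.3.3) was fitted with TMM factors and its filter on low counts, by type for HLS against LLS, and over all sums with the ewe as a block between types, with Benjamini-Hochberg adjustment over all genes of a fit. The edgeR tests were also run on counts simulated with the spread that edgeR had fitted, which cannot show whether that model holds for these data. DESeq2 1.42.0 and other filters, clusterings and ewes left out were tried as alternatives. All 8 genes were named in every type; of the other prostaglandin genes, those under an unadjusted p of 0.05 or among those over 1 UMI per 10000 UMI in a type; and 3 genes of like pattern each, of which 1 is not reported here. The p-values of HLS against LLS measure the spread between ewes, with 3 per group. Those between types measure the spread left within ewes, pooled over the types of the fit. Clustering used leidenalg 0.10.2, igraph 0.11.9 and scikit-learn 1.9.0, and other steps pandas 2.3.3, numpy 2.4.6, matplotlib 3.10.9 and scipy 1.17.1, in Python 3.11.15. Sequences of these genes were not used here.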

Additional observations from a re-analysis of the deposited data

Results flagged for a closer look

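Among 86 levels of a gene in a type with at least 30 UMI, 12 had 1 ewe far from the other 5 by Dixon's test at the 95% level. Chance gives about 1 in 20 for normal and independent values. These levels come from sparse counts and share ewes, so 12 of 86 is not read as an excess. Levels are UMI per 10000 UMI.

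LLS replicate 1 stood apart in 4 of them. PTGS2 in APLN endothelium was 0.654 there and at most 0.0262 in the other ewes, PTGS1 in mural granulosa-like cells was 0.312 and next 0.0932, and in its 21 cycling stromal-like cells PTGIS was 1.90 and next 0.757 and PTGFR 0.337 and next 0.0910. LLS replicate 2 stood apart in 4, with PTGS2 at 1.43 (next 0.679) and PTGER4 at 0.317 (next 0.146) over all retained cells, PTGER4 at 0.172 (next 0.0903) in perivascular-like cells and PTGIS at 0.0559 (next 0.0220) in cycling endothelial-like cells. HLS replicate 2 was the high ewe for PTGES in granulosa-like cells (1.83, next 1.18) and in macrophage-like cells (0.390, next 0.165). PTGFR in granulosa-like cells was 0.202 in LLS replicate 3 (next 0.0882), and PTGIS in PTCH1 stromal-like cells was 0.339 in HLS replicate 1, below the next at 0.537.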

How the results depend on the processing

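Levels of the 8 genes in their highest types moved by less than the SD between ewes in 103 recomputed values. The 1 exception was the level of PTGER4 in macrophage-like cells, 2.41 after cells were thinned to 2000 UMI against 2.04. Means with 1 ewe left out are among the 103. Such a mean cannot move by as much as the SD, whatever the values, so these are no test of how stable the levels are. The contrasts between types of PTGES, HPGD, PTGFR and PTGER4 kept their call under each alternative run. PTGS2 in DPT stromal-like against ACTA2 stroma was not called with DESeq2 (1.18) or with no ewe block (1.12), and ranged from 1.01 to 1.19 without 1 ewe. PTGIS in the same contrast was called after thinning (0.81) and ranged from 0.51 to 0.75 without 1 ewe. PTGER2 in macrophage-like against epithelial-like cells was not called with library totals in place of TMM factors (0.41), no filter on low counts (0.81), DESeq2 (0.59), no ewe block (0.70), called doublets kept (0.75) or resolution 0.4 (0.71), and ranged from 0.48 to 1.25 without 1 ewe. PTGS1 in endothelial-like against APLN endothelium, never called, turned with library totals (-0.0069), resolution 0.4 (-0.23), resolution 1.6 (-0.053) and prostaglandin genes kept in the clustering (-0.33), and ranged from -0.20 to 0.53 without 1 ewe. The cause of these changes was not tested.

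Between HLS and LLS, 0 of the 8 genes were called under 260 combinations of type and alternative, with 2 exceptions. With no filter on low counts 1 was called in theca-like cells (PTGFR, -2.08) and 1 in APLN endothelium (PTGS2, -3.28, adjusted p = 2.15e-05, with the high value of LLS replicate 1). That setting called 985 genes in all, DESeq2 118 and the edgeR tests as reported 2. PTGFR in ACTA2 stroma turned to -0.19 when theca-like and stromal-like cells were joined, and PTGIS in cycling stromal-like cells to 0.10 after thinning. Joined stromal types, endothelial-like cells without 2 clusters and granulosa sub-clusters of other classes kept were chosen after the data were seen. With the replicate number as a block 0 of the 8 genes and 3 of all genes were called, and PTGES in granulosa-like cells was 0.35 on the log2 scale. Deviations of same-numbered ewes correlated at -0.09, -0.43 and 0.11 over all cells, where the mix of cells enters. They correlated at -0.33, -0.60 and 0.50 in endothelial-like cells. In granulosa-like cells all 6 ewes correlated best with their own number (0.13, 0.25 and 0.33). The labels do not say what the numbers stand for, and these values cannot tell whether same-numbered ewes were handled together. With 3 ewes a group differences of moderate size in sparse genes could not be shown.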
